A study of Mus musculus with 6 samples.

Results

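The genes described here are 34 genes of protein folding in the endoplasmic reticulum (ER) and of the unfolded protein response, chosen by symbol for their known roles. All 34 were measured, among 18194 genes with at least 1 probe set annotated to a single symbol, and each was read at the probe set with the highest mean over the 6 arrays. The cells were sorted from adult mouse bone marrow, with 2 Affymetrix arrays in each of 3 groups. E2A-KO LMPP and WT LMPP are lymphoid-primed multipotent progenitors, which lack lineage markers, carry SCA1 and KIT and have high surface FLT3, from E2A knockout mice on a C57BL/6 background and from C57BL/6 wild-type mice. WT LSK FLT3- cells, sorted in the same way but negative for FLT3, hold the hematopoietic stem cells, and were wild type only. E2A is the pair of basic helix-loop-helix transcription factors made from Tcf3. The sources used here name neither the allele nor an age beyond adult. They also do not say whether replicate arrays stand for different animals, so p-values rest on a spread between arrays that could be technical only.

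The 2 fractions differed across the whole array. The 4 LMPP arrays had upper quartiles of 5.78 to 5.82 (log2) and medians of 4.01 to 4.04, against upper quartiles of 6.13 and 6.15 and medians of 3.91 and 3.90 in WT LSK FLT3-. The 3′ control probe set of Actb exceeded its 5′ one by 3.77 to 3.95 on the LMPP arrays, against 3.55 and 3.45 in WT LSK FLT3-. For Gapdh these differences overlapped, with 3.09 to 3.35 on the LMPP arrays against 3.44 and 3.25. The part of RNA quality or labelling in the differences between fractions was not tested. No source used here says which arrays were normalized together, and calls between fractions changed with quantile normalization, as given below. Flt3, the gene of the marker that separates the fractions, fitted the labels. It was at 10.70 and 10.76 in E2A-KO LMPP and 10.80 and 10.80 in WT LMPP, against 8.87 and 8.76 in WT LSK FLT3-. Of 6 measured gate markers, Flt3 included, 3 were higher and 1 lower in WT LMPP than in WT LSK FLT3-, with changes from -1.24 to 1.99. All 9 measured stem cell markers were lower in WT LMPP than in WT LSK FLT3-. Tcf3 at its brightest probe set was at 6.80 and 6.53 in E2A-KO LMPP and 6.93 and 6.86 in WT LMPP (limma adjusted p = 0.546 in the fit over all probe sets). No source used here places this probe set inside or outside the deleted sequence, so it does not check the genotype label.

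Secreted and membrane proteins are folded in the ER by chaperones and disulfide isomerases, and proteins that fail are passed back to the cytosol and destroyed, which is called ER-associated degradation (ERAD). When unfolded protein builds up, the membrane sensors IRE1 (Ern1), ATF6 and PERK (Eif2ak3) switch on a transcriptional response. IRE1 splices the mRNA of Xbp1, ATF6 is cut to release a transcription factor, and PERK phosphorylates eIF2 and so raises translation of ATF4, which also serves amino acid shortage in the wider integrated stress response. In blood the pathway is best known from plasma cells, which need XBP1 to secrete antibody. Splicing, cleavage and phosphorylation do not show in probe set levels, so the arrays report transcript levels alone.

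The promoters of these genes were searched for motifs of the response. The members were chosen for known roles, among them as targets of this response. A high share of its motifs among them is thus no independent finding. The ER stress response element (ERSE, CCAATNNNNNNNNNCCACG on either strand), bound by NF-Y and ATF6, lay in the 300-base window from 250 bases before to 50 after the annotated start site of 9 of the 30 members with a RefSeq window (GRCm38.p6), a share of 30%, against 37 of 27025 genes (0.137%, members included). The related ERSE-II (ATTGG and CCACG with 1 base between, either strand), which ends in the same 5 letters, lay in 2 members, Herpud1 and Dnajb11, against 0.0444% of genes. The unfolded protein response element (UPRE, TGACGTGG, the binding sequence of XBP1) lay in 1 member, Txndc5, against 0.714% of genes. The ATF4 composite element (TGATGNAA) lay in 5, Asns, Chac1, Herpud1, Trib3 and Txndc5, or 16.7%, against 4.51% of genes. Atf6, Hyou1, Manf and Derl1 had no window. A match is a description of letters and not of a bound site, and a window without a match says only that these letters are not in it. The 10 ERSE matches are shown in one orientation, with the fixed letters in capitals and the spacer in lower case, to show the spacers beside each other:
Hspa5, chr2:34772025-34772043, forward strand: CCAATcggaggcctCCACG
Hsp90b1, farther from the start site, chr10:86705638-86705656, reverse strand: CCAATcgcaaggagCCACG
Hsp90b1, nearer to the start site, chr10:86705533-86705551, forward strand: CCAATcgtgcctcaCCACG
Dnajc3, chr14:118937827-118937845, forward strand: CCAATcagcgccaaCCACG
Calr, chr8:84847075-84847093, forward strand: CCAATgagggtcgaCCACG
Canx, chr11:50325800-50325818, reverse strand: CCAATcaccacgctCCACG
Pdia6, chr12:17266491-17266509, forward strand: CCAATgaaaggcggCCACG
Creld2, chr15:88819520-88819538, reverse strand: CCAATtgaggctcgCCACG
Derl3, chr10:75893242-75893260, reverse strand: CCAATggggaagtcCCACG
Syvn1, chr19:6046532-6046550, forward strand: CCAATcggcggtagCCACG

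The 250 bases before the start site are shown for 4 members that stand for the different arrangements, 5′ to 3′ on the gene's strand, with every motif match in capitals. Hspa5 encodes BiP, the HSP70 of the ER, and has an ERSE at 65 bases before its start. Dnajc3 encodes a BiP cochaperone that also restrains PERK, and has an ERSE at 105 bases. Herpud1 encodes an organizer of the ERAD complex and has both an ERSE-II and an ATF4 composite element. Asns encodes asparagine synthetase, a target of ATF4, and has an ATF4 composite element only.
Hspa5, chr2:34771840-34772089, forward strand: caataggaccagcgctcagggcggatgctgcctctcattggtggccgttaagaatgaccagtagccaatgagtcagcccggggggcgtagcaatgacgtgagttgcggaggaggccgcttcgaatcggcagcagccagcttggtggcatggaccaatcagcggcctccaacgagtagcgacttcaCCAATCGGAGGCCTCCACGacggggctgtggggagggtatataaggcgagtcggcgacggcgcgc
Dnajc3, chr14:118937682-118937931, forward strand: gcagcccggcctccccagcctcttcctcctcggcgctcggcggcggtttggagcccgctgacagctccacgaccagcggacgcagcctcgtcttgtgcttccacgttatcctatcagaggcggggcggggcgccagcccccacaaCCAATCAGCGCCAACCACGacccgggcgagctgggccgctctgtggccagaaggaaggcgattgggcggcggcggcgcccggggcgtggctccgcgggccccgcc
Herpud1, chr8:94386179-94386428, forward strand: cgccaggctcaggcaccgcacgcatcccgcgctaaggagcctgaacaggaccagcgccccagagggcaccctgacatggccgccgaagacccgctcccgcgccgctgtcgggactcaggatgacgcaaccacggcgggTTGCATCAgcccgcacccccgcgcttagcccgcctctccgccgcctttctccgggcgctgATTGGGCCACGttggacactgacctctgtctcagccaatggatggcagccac
Asns, chr6:7693210-7693459, reverse strand: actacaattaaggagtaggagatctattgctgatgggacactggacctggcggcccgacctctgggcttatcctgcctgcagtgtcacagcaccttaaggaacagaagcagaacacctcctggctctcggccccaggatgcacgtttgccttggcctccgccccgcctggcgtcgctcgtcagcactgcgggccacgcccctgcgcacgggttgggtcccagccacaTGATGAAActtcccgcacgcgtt

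**Figure D1:**
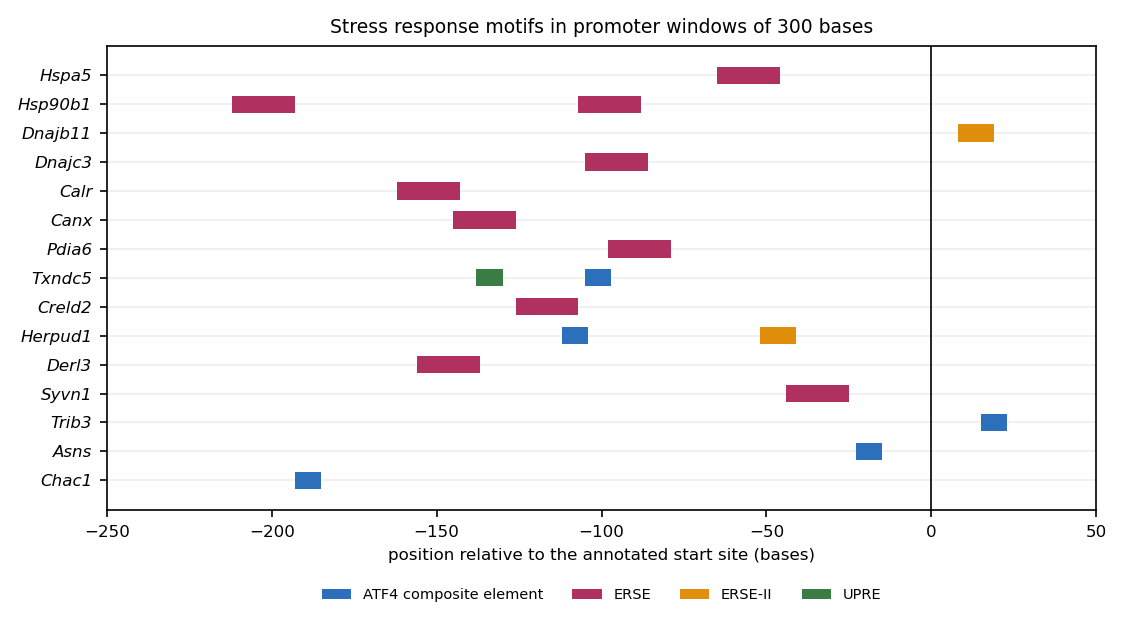
Position of motif matches (bars, to scale in bases) relative to the annotated start site (0) in the promoter windows of the 15 members with a match; colours mark the motif. The ERSE matches lie between 44 and 212 bases before the start, and the 2 matches of Txndc5 lie in windows of different start sites.

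**Figure D2:**
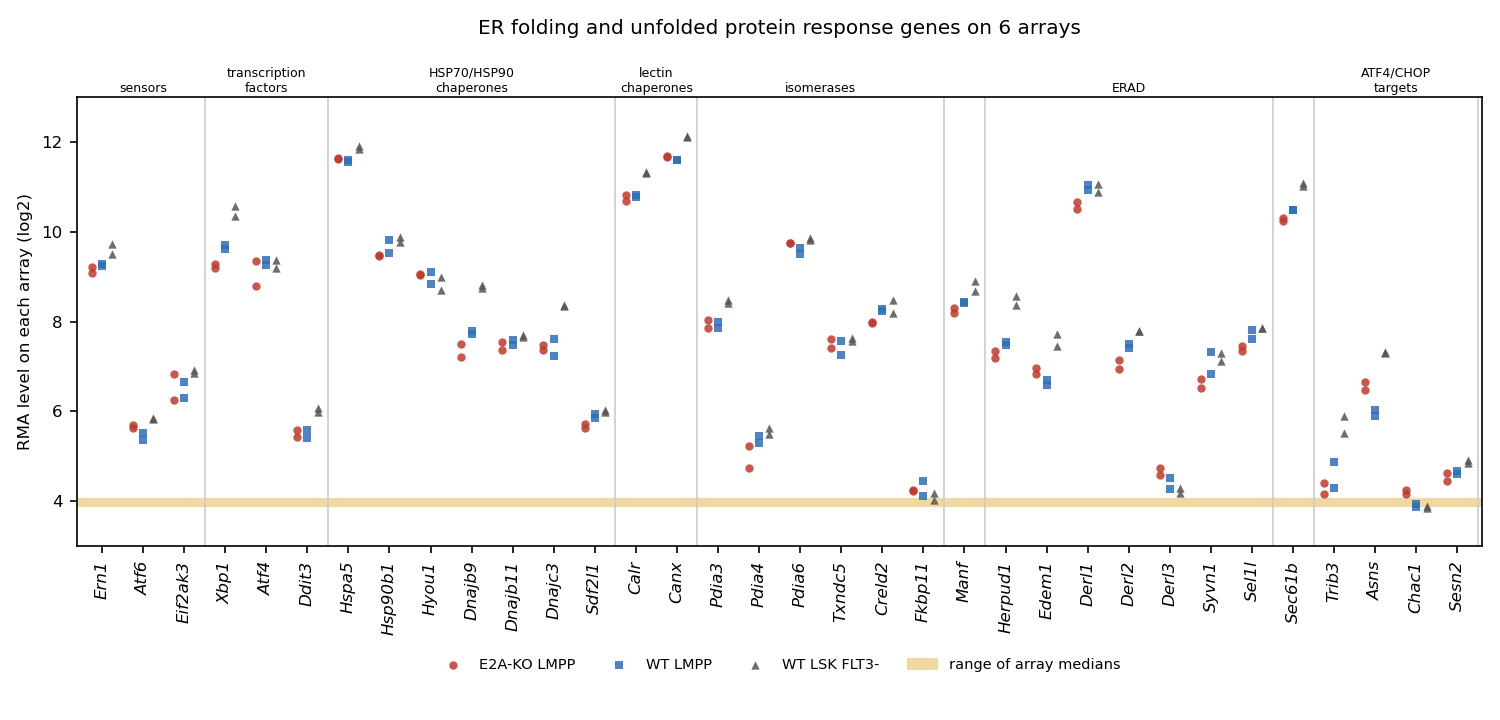
RMA level (log2) of each gene on each of the 6 arrays, grouped by role; circles are E2A-KO LMPP, squares WT LMPP and triangles WT LSK FLT3-, and the band spans the array medians. Triangles stand clear of both LMPP groups for Xbp1, Dnajb9, Dnajc3, Herpud1, Edem1, Trib3 and Asns; levels of different genes are not comparable between probe sets.

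The stated aim of the experiment was to compare knockout with wild-type LMPP. In that comparison 0 of the 34 genes changed (limma's moderated test, Benjamini-Hochberg adjusted p under 0.05 over all genes), against 1.37% of all genes tested. Without the dimmest 40% of genes 1 of 33 members, Asns, was higher and 0 lower, where 3.07% of those genes changed, 0.797% higher and 2.27% lower. At an unadjusted p under 0.05, 2 members were higher and 7 lower, where 14.6% of all genes had such a p. The median difference of the members was -0.10 (log2), against -0.02 over all genes, and the differences ran from -0.46 to 0.60. The largest difference was 1.52-fold, and a p that misses the threshold does not show equal levels.

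The nearest to a call was Asns. It was at 6.65 and 6.48 (log2) in E2A-KO LMPP and 6.03 and 5.89 in WT LMPP, with no overlap, a difference of 0.60 (SE 0.13, adjusted p = 0.0766). Its second probe set was 0.73 higher and just passed in the fit over all probe sets (adjusted p = 0.0481), and 4 of the 15 alternative settings called Asns higher, with adjusted p from 0.0288 to 0.24 over all of them. Chac1, a glutathione-degrading enzyme induced by ATF4, was also higher on both knockout arrays, at 4.17 and 4.26 against 3.86 and 3.95, near the array median where the arrays compress differences (0.31, SE 0.13, adjusted p = 0.305). The other ATF4 and CHOP targets did not share this direction. Trib3, a pseudokinase that restrains the response, was at 4.42 and 4.17 in E2A-KO LMPP and 4.29 and 4.87 in WT LMPP, and Sesn2, a stress-induced inhibitor of mTORC1, at 4.63 and 4.44 against 4.68 and 4.61. Both overlapped between genotypes (adjusted p = 0.594 and 0.763).

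The 3 sensors and 3 transcription factors did not pass either. Ern1 was at 9.21 and 9.07 in E2A-KO LMPP and 9.23 and 9.28 in WT LMPP, Atf6 at 5.70 and 5.63 against 5.51 and 5.36, and Eif2ak3 at 6.83 and 6.25 against 6.29 and 6.65. Xbp1 was lower on both knockout arrays, at 9.28 and 9.20 against 9.61 and 9.71, a difference of -0.42 (95% interval -0.73 to -0.11, adjusted p = 0.2). Ddit3, which encodes CHOP, was level (5.43 and 5.57 against 5.40 and 5.59), and Atf4 overlapped (8.80 and 9.35 against 9.26 and 9.37).

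Several genes, mostly of the IRE1 and ERAD branch, were lower at the probe set used, without passing. These were Syvn1, the ubiquitin ligase of ERAD (-0.46), Derl2 (-0.41) and Derl1 (-0.39), membrane proteins of the export channel, and Sel1l, the partner of Syvn1 (-0.31). Dnajb9, a BiP cochaperone induced by XBP1, was at -0.40 and the disulfide isomerase gene Pdia4 at -0.40. Their adjusted p ran from 0.196 to 0.339. Other probe sets did not bear out this direction for 3 of them: all 4 other Sel1l probe sets were higher (0.12 to 0.28), the second Derl2 probe set was at 0.30, and 1 of the 3 other Derl1 probe sets was at 0.11, none of them passing. With the mean of all probe sets Sel1l was at 0.11 and Derl2 at -0.05. In contrast Edem1, which extracts misfolded glycoproteins and is another XBP1 target, was 0.27 higher and Derl3 0.26 higher, also without passing. Of all 34 members, 14 had both knockout arrays below both wild-type arrays, where 22.8% of all genes did, and 8 had both above, where 18.8% did. With a variance trend and robust estimation Xbp1 and Derl1 passed as lower (adjusted p = 0.0248 and 0.0178), in a setting that called 3.01% of all genes.

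The abundant chaperones did not pass. Hspa5 was at 11.65 and 11.63 in E2A-KO LMPP against 11.56 and 11.59 in WT LMPP, and its interval ran from -0.21 to 0.35. Canx, the membrane lectin chaperone calnexin, was at 11.66 and 11.69 against 11.59 and 11.59, and Calr, its soluble relative calreticulin, at 10.83 and 10.67 against 10.77 and 10.83. Hsp90b1, the HSP90 of the ER also known as GRP94, was at 9.47 and 9.49 against 9.53 and 9.81, and its second probe set was at -0.66 (adjusted p = 0.111). Both knockout arrays lay above both wild-type arrays for Hspa5 and Canx and below them for Hsp90b1. The remaining members (Hyou1, Dnajb11, Dnajc3, Sdf2l1, Pdia3, Pdia6, Txndc5, Creld2, Fkbp11, Manf, Herpud1 and Sec61b) differed by -0.28 to 0.18, with adjusted p from 0.396 to 0.989.

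**Figure D3:**
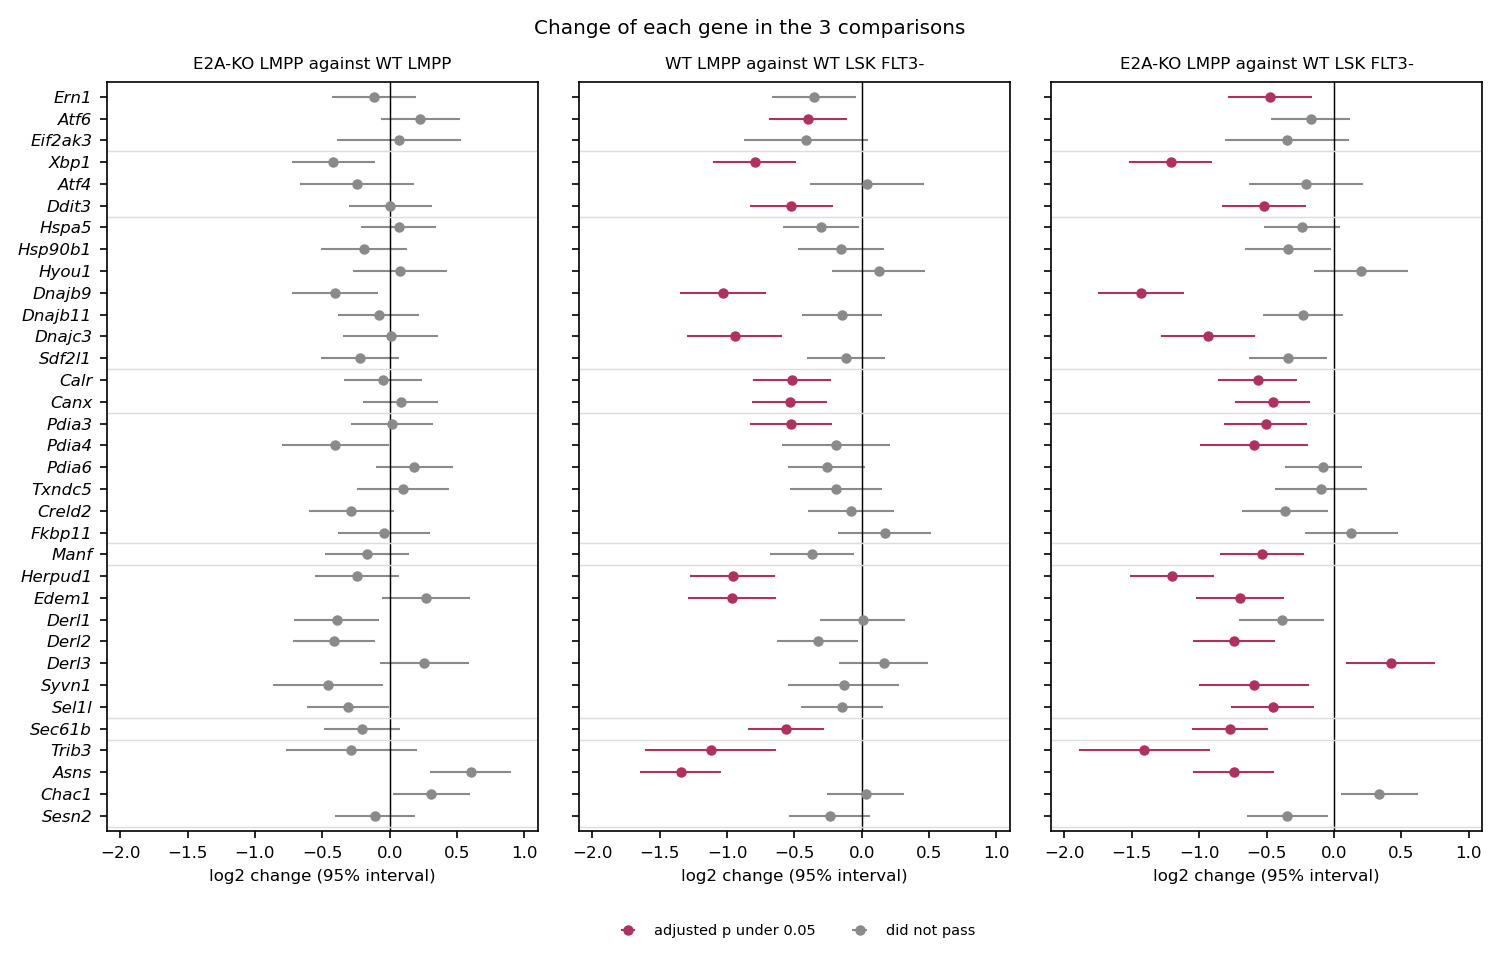
Log2 change of each gene with its 95% interval from the limma fit in the 3 comparisons; red marks an adjusted p under 0.05 and grey a gene that did not pass. There are 0 red points for E2A-KO LMPP against WT LMPP, 13 for WT LMPP against WT LSK FLT3- (all lower), and 19 between E2A-KO LMPP and WT LSK FLT3- (18 lower, Derl3 higher).

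Of 144 measured genes from 6 further lists of the secretory and stress pathways, 1 rose and 3 fell in E2A-KO LMPP, against 0.379% and 0.995% of all genes. Vldlr, the very low density lipoprotein receptor and an ATF4 target, rose to 9.62 and 9.52 in E2A-KO LMPP, against 8.12 and 8.28 in WT LMPP (1.37, SE 0.13, adjusted p = 0.00176), and kept the call in all 15 alternatives; its probe set has an _x_at suffix, which marks probes shared with other sequences. Ddit4, a stress-induced inhibitor of mTORC1, fell to 4.85 and 5.17, against 5.93 and 6.29 (-1.10, SE 0.18, adjusted p = 0.0215). Fam8a1, an accessory protein of the Syvn1 ligase complex, fell to 8.13 and 8.20, against 8.95 and 8.96 (-0.79, SE 0.14, adjusted p = 0.0325), and Arfgap3, a regulator of Golgi to ER traffic, fell to 5.04 and 5.23, against 5.94 and 5.98 (-0.82, SE 0.13, adjusted p = 0.0211). These 3 calls were fragile. Each was lost on the 4 LMPP arrays alone and without either E2A-KO LMPP array, without WT LMPP replicate 2 or without either WT LSK FLT3- array, and those of Fam8a1 and Arfgap3 also without WT LMPP replicate 1, with adjusted p reaching 0.124 for Ddit4, 0.145 for Fam8a1 and 0.275 for Arfgap3. None of the other ER folding genes (23), translocation genes (27) or further regulators of the unfolded protein response (19) passed in this comparison. Beside these calls, 7 of 9 measured neutrophil markers were lower in E2A-KO LMPP, up to 12.0-fold, and their summed linear level was 664 and 583 in E2A-KO LMPP, against 2976 and 2979 in WT LMPP. The part of this in the calls was not tested.

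The step between the wild-type fractions gave many more calls. From 34 members 13 were lower in WT LMPP than in WT LSK FLT3-, a share of 38.2%, and 0 were higher, while 34.1% of all genes changed, 23.7% lower and 10.4% higher. Both WT LMPP arrays lay below both WT LSK FLT3- arrays for 25 members, where 39.3% of all genes did, and above them for 0, where 32.4% did. Amino acid synthesis and feedback genes of the ATF4 branch (Asns, Trib3), cochaperones of BiP (Dnajb9, Dnajc3), ERAD genes (Herpud1, Edem1) and Xbp1 had the largest falls, 1.74-fold to 2.54-fold. Among folding and entry genes calnexin, calreticulin, Pdia3 and the translocon subunit Sec61b fell 1.43-fold to 1.48-fold, and Hspa5, Hsp90b1, Hyou1, Dnajb11, Sdf2l1, Pdia4, Pdia6, Txndc5, Creld2 and Fkbp11 did not pass at the probe set used. In bulk samples, fewer cells of a type and less RNA per cell cannot be told apart.

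The share of falls is close to that of the genes left without the dimmest 40%, a set not matched to the members in brightness. Members are mostly well expressed, and 33 of 34 stay when the dimmest 40% of genes are left out. Among the 10916 genes that remain, 51.3% changed, 40.8% lower and 10.5% higher in WT LMPP, and the members counted 15 lower and 0 higher of 33. The median change of the members in that set was -0.33, against -0.29 for all genes in it (over all genes tested, -0.31 against -0.01). So the share of falls is near the background of brighter genes. The highest change of a member was 0.17.

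**Figure D4:**
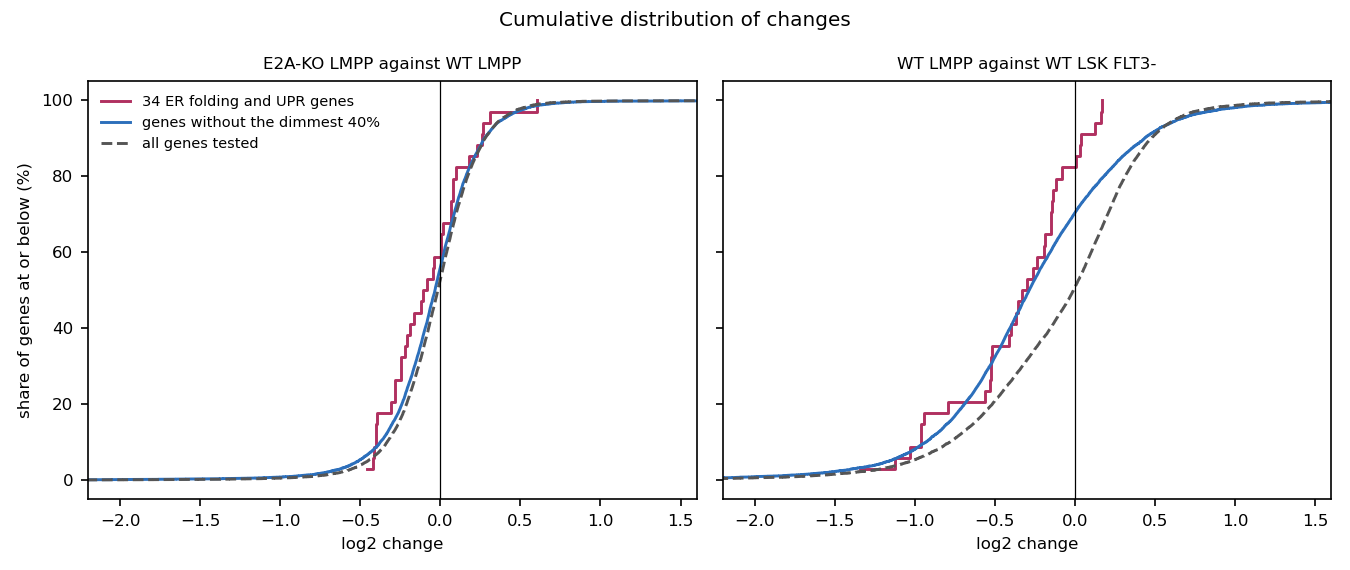
Cumulative share of genes (%) at or below each log2 change, for the 34 members (red), the 10916 genes without the dimmest 40% (blue) and all 18194 genes (dashed), in 2 comparisons. For WT LMPP against WT LSK FLT3- the median of the 34 members (-0.31) lies near that of the blue curve (-0.29), and the members end at 0.17.

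The ATF4 and CHOP targets split into 2 that fell and 2 that did not pass. Asns was at 6.65 and 6.48 in E2A-KO LMPP, 6.03 and 5.89 in WT LMPP and 7.32 and 7.29 in WT LSK FLT3-. Wild-type LMPP were thus lowest, 1.34 (log2) below WT LSK FLT3- (SE 0.13, adjusted p = 0.000259), and the 3 groups did not overlap. The second Asns probe set fell by 2.11. Trib3 was at 4.42 and 4.17, 4.29 and 4.87, and 5.89 and 5.51 in the same order, a change of -1.12 between the wild-type fractions (SE 0.21, adjusted p = 0.00501) that was lost without WT LSK FLT3- replicate 1 (adjusted p = 0.0595). Its probe set also has an _x_at suffix, and the other Trib3 probe set did not pass (-0.15). Chac1 (0.03) and Sesn2 (-0.24) did not pass, although a second Sesn2 probe set fell by 0.82 (adjusted p = 0.00533).

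Among the transcription factors, Xbp1 fell by 0.80 (SE 0.14, adjusted p = 0.00306), with 9.28 and 9.20 in E2A-KO LMPP, 9.61 and 9.71 in WT LMPP and 10.56 and 10.34 in WT LSK FLT3-. The WT LSK FLT3- arrays were highest, and 2 of its 3 other probe sets fell by similar amounts (-0.78 and -0.81). Ddit3 was at 5.43 and 5.57, 5.40 and 5.59, and 5.98 and 6.07, and fell by 0.52 in WT LMPP (adjusted p = 0.0189). Atf4 did not pass at 0.04, with 8.80 and 9.35, 9.26 and 9.37, and 9.19 and 9.36, so all groups overlapped. Of its other probe sets, the dimmest rose by 0.96 (adjusted p = 0.00183) and the third differed by 0.00.

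All 3 sensors had both WT LMPP arrays below both WT LSK FLT3- arrays, where 39.3% of all genes and 25 of the 34 members did. Atf6 was at 5.70 and 5.63 in E2A-KO LMPP, 5.51 and 5.36 in WT LMPP and 5.83 and 5.85 in WT LSK FLT3- (-0.40, SE 0.13, adjusted p = 0.0402). That call was lost in 8 of 15 alternatives, among them the fits without WT LMPP replicate 2 or either WT LSK FLT3- array. Ern1, with 9.50 and 9.72 in WT LSK FLT3- (-0.36, adjusted p = 0.0764), and Eif2ak3, with 6.85 and 6.91 (-0.41, adjusted p = 0.146), did not pass. Another probe set of Eif2ak3, below the array median, rose by 0.55 (adjusted p = 0.0283), opposite to the probe set used.

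Of the cochaperones of BiP, Dnajb9 and Dnajc3 fell and Dnajb11 and Sdf2l1 did not pass. Dnajb9 was at 7.21 and 7.49 in E2A-KO LMPP, 7.78 and 7.73 in WT LMPP and 8.75 and 8.82 in WT LSK FLT3-, a stage change of -1.03 (SE 0.14, adjusted p = 0.0011). Dnajc3 was at 7.36 and 7.47, 7.22 and 7.60, and 8.34 and 8.37, a change of -0.94 (SE 0.15, adjusted p = 0.00252), and 3 of its 4 other probe sets fell too. Both LMPP groups overlapped for Dnajc3 and lay below WT LSK FLT3-. For Hspa5 the values were 11.65 and 11.63, 11.56 and 11.59, and 11.84 and 11.90 (-0.30, adjusted p = 0.0902). One further Hspa5 probe set fell by 0.70 (adjusted p = 0.00707) and another differed by 0.28 in the opposite direction without passing, so the size for BiP depends on the probe set. Hyou1, an HSP110-type partner of BiP, did not pass at 0.13, and a second probe set of it rose by 1.00 (adjusted p = 0.00159). Dnajb11 (-0.15), Sdf2l1 (-0.12) and Hsp90b1 (-0.15) did not pass.

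Of the ERAD genes Herpud1 and Edem1 fell and 5 did not pass at the probe set used. Herpud1 was at 7.19 and 7.35 in E2A-KO LMPP, 7.49 and 7.53 in WT LMPP and 8.36 and 8.58 in WT LSK FLT3- (-0.96, SE 0.14, adjusted p = 0.00139). Edem1 was at 6.84 and 6.97, 6.58 and 6.69, and 7.46 and 7.73 (-0.96, SE 0.14, adjusted p = 0.00163). In both genes every LMPP array lay below every WT LSK FLT3- array, and the second probe set of each fell as well. Derl2 (-0.33), Sel1l (-0.15), Syvn1 (-0.14), Derl1 (0.01) and Derl3 (0.16) did not pass. The second Derl2 probe set, however, fell by 0.76 (adjusted p = 0.0057 in the limma fit over all probe sets).

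The lectin chaperones both fell, Canx by 0.53 (SE 0.12, adjusted p = 0.0112), with 12.11 and 12.14 in WT LSK FLT3- and falls of 0.58 and 0.91 at its other probe sets, and Calr by 0.52 (SE 0.13, adjusted p = 0.0156), with 11.33 and 11.31. For Calr the other 2 probe sets, at -0.26 and -0.27, did not pass. Among the isomerases Pdia3, the disulfide isomerase that works with calnexin and calreticulin, fell by 0.52 (adjusted p = 0.0179), and Pdia4, Pdia6, Txndc5, Creld2 and Fkbp11 did not pass (-0.26 to 0.17). A dimmer Txndc5 probe set fell by 0.82 (adjusted p = 0.00863) and a dimmer Fkbp11 probe set by 0.61 (adjusted p = 0.0297). Sec61b, a subunit of the channel through which new proteins enter the ER, was at 10.24 and 10.32 in E2A-KO LMPP, 10.48 and 10.48 in WT LMPP and 11.08 and 11.02 in WT LSK FLT3- (-0.56, SE 0.12, adjusted p = 0.00941). Manf, a secreted ER stress factor, did not pass (-0.37, adjusted p = 0.0666).

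These falls partly depend on how the arrays are scaled. Quantile normalization of the 6 arrays left 7 of the 13 falls (Asns, Trib3, Dnajb9, Herpud1, Dnajc3, Xbp1 and Edem1), moved the median of the members to -0.06 and called 19.2% of all genes. It also moved the share of all calls that were higher in WT LMPP to 47.4%, against 30.5% in the values as deposited, and centring on array medians moved it to 17.8%. Centring moved the median of all genes to -0.12 and that of the members to -0.42. Without WT LSK FLT3- replicate 1, 6 members were lower, and without replicate 2, 7 were. Xbp1, Dnajb9, Dnajc3, Herpud1, Edem1 and Asns kept their calls in all 15 alternatives.

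Of the 11 members with an ERSE or ERSE-II in the window 4 fell between the wild-type fractions, with a median change of -0.26, and of the 19 other members with a window 8 fell, with a median of -0.36. Of the 5 members with an ATF4 composite element, 3 fell (Asns, Trib3 and Herpud1), with a median of -0.96. Of the 25 other members with a window 9 fell, with a median of -0.30. Over all genes 23.7% were lower, and 40.8% of the brighter genes in a separate fit on those genes alone. A link between motif and fall was not tested. Dnajb9, Edem1 and Xbp1 had none of the 4 motifs in their windows.

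Transcripts of other cell types moved with the same contrast. Igha, an immunoglobulin heavy chain gene, was at 4.55 and 4.38 in E2A-KO LMPP and 4.03 and 4.50 in WT LMPP, against 9.97 and 10.13 in WT LSK FLT3-. The joining chain gene Jchain was at 3.28 and 3.34, 3.32 and 3.02, and 7.83 and 8.05. Of 16 measured plasma cell and B cell markers 3 were lower and 5 higher in WT LMPP, and the summed linear level was 1402 and 1461 in E2A-KO LMPP and 1406 and 1425 in WT LMPP, against 2162 and 2271 in WT LSK FLT3-. The plasma cell regulator Prdm1 (3.52 and 3.52) and the receptor gene Tnfrsf17 (3.39 and 3.37) lay below the array median in WT LSK FLT3-, and Sdc1 was lower there than in LMPP (5.48 and 5.61). Derl3 and Fkbp11, members known to be abundant in plasma cells, did not pass at the probe set used, with 4.27 and 4.53 in WT LMPP against 4.29 and 4.17 in WT LSK FLT3- for Derl3, and 4.45 and 4.11 against 4.18 and 4.03 for Fkbp11. The Fkbp11 probe set that fell was at 3.68 and 3.56 in WT LMPP against 4.42 and 4.02 in WT LSK FLT3-. Other members tied to plasma cells did fall: Xbp1, which these cells need to secrete antibody (-0.80), and its targets Dnajb9 (-1.03) and Edem1 (-0.96). Mast cell and basophil markers, 4 of 10 lower and 2 higher in WT LMPP, summed to 180 and 177 in E2A-KO LMPP and 159 and 147 in WT LMPP, against 534 and 558 in WT LSK FLT3-. Of 9 erythroid markers 6 were lower and 2 higher, up to 17.0-fold, with sums of 936 and 975 in E2A-KO LMPP and 1163 and 1158 in WT LMPP, against 2605 and 3602 in WT LSK FLT3-. Of 9 neutrophil markers 6 were higher and 0 lower in WT LMPP, with sums of 2976 and 2979, against 1750 and 1634 in WT LSK FLT3-. Over all genes the shares were the 23.7% lower and 10.4% higher given above. The part of these cells in the falls of the members was not tested.

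The further pathway lists also gave mostly falls between the wild-type fractions. Of the 144 further secretory and stress genes 58 were lower in WT LMPP (40.3%) and 1, Wfs1, higher, with a median of -0.33, where 23.7% of all genes were lower. The 40.8% of the brighter genes comes from a fit on those genes alone, so it is not a matched background for this count. By list the share ran from 25% for integrated stress response genes to 47.8% for other folding genes. Falls were counted in 11 of 23 other folding genes, led by the ER oxidase gene Ero1a (-0.99), Dnajc10 (-0.75) and Tmx1 (-0.69), and in 7 of 17 other ERAD genes, led by Nploc4 (-0.87), Fam8a1 (-0.72) and Edem2 (-0.71). They were counted in 12 of 27 translocation genes, led by Ssr2 of the translocon-associated complex (-1.03), the signal recognition particle gene Srp9 (-0.91) and Spcs3 of the signal peptidase (-0.71). In ER to Golgi transport 12 of 26 fell, led by the COPII coat genes Sec24d (-2.09, SE 0.18, adjusted p = 0.000131), Sec31a (-1.02) and Sec24a (-0.90). Of 32 integrated stress response genes 8 fell, led by Nupr1 (-1.13, with WT LMPP levels below the array median), the amino acid transporter gene Slc3a2 (-0.93) and Gars (-0.64), and of 19 further regulators 8 fell, led by Ufl1 (-1.33, with WT LMPP levels also below the array median), Yod1 (-0.98) and Creb3l2, at 5.52 and 5.35 in WT LMPP against 6.42 and 6.46 in WT LSK FLT3-.

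E2A-KO LMPP were also set against WT LSK FLT3-, a comparison that shares the WT LSK FLT3- arrays with the last one and joins genotype and stage. Of 34 members 18 were lower and 1 higher in E2A-KO LMPP, where 37.5% of all genes changed, 26.5% lower and 11% higher. Both E2A-KO LMPP arrays lay below both WT LSK FLT3- arrays for 28 members, where 41.1% of all genes did, and above them for 4, where 32.9% did. Without the dimmest 40% of genes the counts were 22 lower and 1 higher of 33, where 55.9% of the brighter genes changed, 45.4% lower and 10.5% higher. The median of the members was -0.45, and -0.33 for all genes in the brighter set.

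The largest changes were in Dnajb9 (-1.43, SE 0.14, adjusted p = 0.000209), Trib3 (-1.41, SE 0.21, adjusted p = 0.00161), Xbp1 (-1.21, SE 0.14, adjusted p = 0.000401) and Herpud1 (-1.20, SE 0.14, adjusted p = 0.000439). Each had all E2A-KO LMPP arrays below all WT LSK FLT3- arrays, and WT LMPP means in between. Dnajc3 (-0.94), Sec61b (-0.77), Asns (-0.74), Derl2 (-0.74), Edem1 (-0.69), Syvn1 (-0.59), Pdia4 (-0.59), Calr (-0.57), Manf (-0.53), Ddit3 (-0.52), Pdia3 (-0.51), Ern1 (-0.47), Sel1l (-0.45) and Canx (-0.45) were also lower. For some of them further probe sets did not bear out the fall. The further probe sets of Ern1 were at 0.08 to 0.44 and those of Sel1l at -0.38 to 0.38. That of Pdia4 was at 0.20 and that of Pdia3 at 0.06, and none of these passed. Where the other members named had further probe sets, these were lower, though not all passed. At the probe set used, Derl2, Syvn1, Pdia4, Manf, Ern1 and Sel1l passed here and not between the wild-type fractions, and Atf6 passed there and not here. Since the genotype difference itself did not pass for any of these, they are not shown to differ between genotypes.

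At the probe set used, Derl3, a relative of Derl1 and Derl2 found in secretory cells, was the 1 member higher in E2A-KO LMPP. It was at 4.57 and 4.74 against 4.29 and 4.17 (0.42, SE 0.15, adjusted p = 0.0479), and 10 of 15 alternatives did not call it. Other probe sets passed as higher for Hyou1 (0.79), Eif2ak3 (0.63), Atf4 (0.57), Fkbp11 (0.46) and Hspa5 (0.44). For Eif2ak3, Atf4 and Hspa5 this was opposite to the probe set used. Where the probe set used did not pass, others passed as lower for Txndc5 (-0.92), Sesn2 (-0.81), Hspa5 (-0.79), Derl1 (-0.625) and Hsp90b1 (-0.54). Quantile normalization left 6 of the 18 falls and called 1 member higher, Hyou1 (0.53, adjusted p = 0.0389). Of all genes called, 29.3% were higher in the values as deposited, 44% after quantile normalization and 14.6% after centring, which moved the median of all genes to -0.16, against -0.02. Xbp1, Dnajb9, Dnajc3, Herpud1, Sec61b and Trib3 kept their calls in all 15 alternatives. Without WT LSK FLT3- replicate 1, 10 members were lower, and without replicate 2, 8 were. Of the 144 further pathway genes 66 were lower (45.8%, against 26.5% of all genes) and 2 higher, Vldlr and Gpt2. In the separate fit on the brighter genes alone 45.4% of those genes were lower. The largest falls were in Sec24d (-1.93), Ddit4 (-1.60), Ufm1 (-1.53), Fam8a1 (-1.51) and Creb3l2 (-1.50).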

How the data were processed

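The 6 arrays were grouped by title; the description field names every sample WT LMPP, against titles and source names, and was not used. The deposited values are linear probe set intensity values; RMA is the method in the submitters' processing notes. Their log2 was taken. No source used here says which arrays were normalized together. Labelling used repeated amplification, per the labels' protocols. Of 45101 probe sets, 34958 had 1 symbol, 932 several and 9211 none; 34754 matched a GRCm38.p6 gene table by Entrez ID. The members had 81 single-symbol probe sets.

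limma 3.58.1 in R 4.3.3 was fitted to all 6 arrays (3 residual and 5.8 prior degrees of freedom), two-sided, with Benjamini-Hochberg adjustment over 18194 genes; second probe sets were read from a fit over all probe sets. The test was checked on simulated data. Promoters are from RefSeq. The members and lists were chosen with earlier results of these data known. All members are described; from each further list up to 3 genes with the largest change past the threshold are named. Genes without a usable probe set were not analysed here. Arrays have no read depth; their number limits the precision. Same-numbered arrays did not deviate together (r = 0.02, -0.02 and -0.04 between groups).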

Additional observations from a re-analysis of the deposited data

How the results depend on the processing

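Counts are given as higher and lower genes, and the cause of each shift was not tested. For E2A-KO LMPP against WT LMPP, 1 member was higher without the dimmest 40% of genes, with the mean of all probe sets and with log2(value + 16), and 1 higher and 2 lower with a variance trend; leaving out any array gave 0. The further pathway genes gave 0 lower on the 4 arrays, 1 with the mean of all probe sets, 5 with the trend, and 0 to 1 with 1 array left out. For WT LMPP against WT LSK FLT3-, members gave 7 lower with quantile normalization and 6 to 13 with 1 array left out, and 1 higher with the mean of all probe sets. The further genes gave 4 higher and 15 lower with quantile normalization, 2 higher with the mean of all probe sets, 0 higher with centring, trend or all probe sets as the unit, and 0 to 2 higher and 17 to 55 lower with 1 array left out. Between E2A-KO LMPP and WT LSK FLT3-, members gave 6 lower with quantile normalization, 8 to 18 lower and 0 to 1 higher with 1 array left out, 2 higher with the mean of all probe sets, and 0 higher with the replicate block, centring, trend, all probe sets as the unit or log2(value + 16). The further genes gave 8 higher and 18 lower with quantile normalization, 1 higher without the dimmest 40% of genes, with the mean of all probe sets or with centring, and 1 to 3 higher and 25 to 72 lower with 1 array left out. The mean of all probe sets turned Ern1 to 0.0605 in this comparison. With the replicate number as a block, members gave 0 calls, 12 lower, and 18 lower in the 3 comparisons; the numbers are not said to pair samples. Over all genes, the comparison of the LMPP genotypes called 250 genes, against 89 on 4 arrays, 548 with the trend and 89 to 164 with 1 array left out. WT LMPP against WT LSK FLT3- called 6198, against 3496 with quantile normalization and 2370 and 2449 without WT LSK FLT3- replicate 1 or 2. E2A-KO LMPP against the same cells called 6822, against 3617, 2944 and 2989 in these settings. A fit with 1 array left out assumes that the lone array varies like the other groups, and one without an array of the third group equals the fit on the 4 arrays compared. Probe sets near the array median limit the sizes of Chac1, Derl3, Fkbp11, Sesn2 and Trib3.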
